A study of Mus musculus with 6 samples.

Results

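The muscle atrophy ubiquitin ligases and the FoxO transcription factors were examined in the hearts of mice that express the human SRY gene. The 6 genes listed by name were Fbxo32, Trim63, Trim54, Trim55, Foxo1 and Foxo3, and every array probe carrying one of these symbols was taken. Of the 6 genes, 5 matched 7 of the 25697 probes on the array, and Trim55 was not analysed here. Of the 7 probes, 6 of 4 genes were above background on enough arrays to be tested, beside 12970 tested probes in all. The hearts came from male mice of the FVB/N background at postnatal day 6 (P6), 3 hSRY-ON and 3 hSRY-OFF, described by the study as biological triplicates and hybridized to 1 Illumina MouseRef-8 array each. hSRY-ON mice carried a fully recombined Signalox-hSRY transgene, a single copy at the H11 locus in which the CAG promoter drives FLAG-tagged human SRY together with EGFP. The recombination was made in the early embryo by Cre from the oocyte of Ddx4-Cre mothers, and hSRY-ON mice without Ddx4-Cre itself were chosen for the arrays. The CAG promoter is active in most tissues, so the hearts belong to animals that express the transgene widely. The methods describe hSRY-OFF mice as carriers of the transgene before recombination, whereas the results describe controls as littermates with Ddx4-Cre alone or no transgene at all. The genotype of the hSRY-OFF hearts is therefore uncertain. The expression of human SRY itself is not analysed here.

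Atrogin-1, encoded by Fbxo32, is the substrate-binding F-box subunit of an SCF ubiquitin ligase, and MuRF1, encoded by Trim63, is a RING-type ligase that binds titin and marks thick filament proteins for the proteasome. MuRF3 (Trim54) and MuRF2 (Trim55) are its relatives at the sarcomere and on microtubules. Fbxo32 and Trim63 are the classical marker genes of muscle wasting, and FoxO1 and FoxO3 induce them when insulin and Akt signaling is low, because Akt phosphorylates the FoxO proteins and keeps them out of the nucleus. An array measures the RNA of these factors and not their phosphorylation or location.

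In the hSRY-ON hearts the RNAs of both measured MuRF ligases were lower than in the hSRY-OFF hearts, Trim63 by 3.47-fold and Trim54 by 2.79-fold. The RNA of Fbxo32 lay higher on average on all of its 3 probes, by 1.43-fold to 1.49-fold, but on none of them did the difference pass the test. Foxo1 was at nearly the same mean level in both groups, and Foxo3 was not above background on any array.

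The promoters of Trim63 and Trim54 are shown because these are the members whose RNA changed. Both are RefSeq sequences of the 250 bases before the transcription start, at GRCm38.p6 chr4:134314870-134315119 (+) for Trim63 and chr5:31116362-31116611 (+) for Trim54. Capitals mark the letters GTAAACA or their reverse complement TGTTTAC, a core sequence that FoxO factors bind, searched on both strands.
Trim63: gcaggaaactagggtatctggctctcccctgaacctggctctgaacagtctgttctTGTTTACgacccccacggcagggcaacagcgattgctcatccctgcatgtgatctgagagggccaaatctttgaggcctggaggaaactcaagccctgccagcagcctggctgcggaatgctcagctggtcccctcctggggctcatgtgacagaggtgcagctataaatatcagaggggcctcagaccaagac
Trim54: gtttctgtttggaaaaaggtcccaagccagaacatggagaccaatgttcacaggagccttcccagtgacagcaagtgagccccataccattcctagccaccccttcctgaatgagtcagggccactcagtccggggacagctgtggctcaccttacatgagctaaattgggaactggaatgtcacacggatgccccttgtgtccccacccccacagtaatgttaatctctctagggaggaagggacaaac
The Trim63 window held the letters once, from base -194 to base -188 relative to the start, and the windows of Trim54, Foxo1 and Foxo3 did not hold them. No promoter window was at hand for Fbxo32 or Trim55, so these members were not searched. Of all 32851 promoter windows of this length, 1040 (3.17%) held them at least once. The match is a description of these windows only.

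Across the arrays, 47.2% to 51.3% of the probes were above background, and the median intensity of an array lay between 156 and 201 for hSRY-OFF and between 167 and 173 for hSRY-ON. The groups differed widely, with 3567 of the 12970 tested probes (27.5%) called at a limma adjusted p under 0.05, 1788 of them higher and 1779 lower in hSRY-ON. All 11 cardiomyocyte markers on the array were above background, Ryr2 on 2 of 3 hSRY-ON arrays and the others on every array. Because a heart is a mixture, fewer cells of a type and less RNA per cell cannot be told apart in any value below, and p-values measure the spread between 3 hearts per group.

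Of the 6 tested member probes, 2 were called, both lower in hSRY-ON. That share stands beside the 27.5% of all tested probes called in either direction and the 13.7% called lower. On 3 of the 6 the groups did not overlap, as on 45.2% of all tested probes. Counts this small on so changed a background give no result about the members as a group, and each gene is therefore described by its own values.

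Trim63 (MuRF1, probe ILMN_3161060) gave normalized log2 levels of 10.49, 10.50 and 10.56 in hSRY-OFF replicates 1, 2 and 3, and of 8.29, 9.03 and 8.85 in hSRY-ON replicates 1, 2 and 3. The deposited intensities were 1793, 1933 and 1264 in the hSRY-OFF and 418, 658 and 561 in the hSRY-ON hearts. All 3 hSRY-ON hearts lay far below all 3 hSRY-OFF hearts, which were close together. The mean was 10.52 ± 0.04 (SD, n = 3) in hSRY-OFF and 8.73 ± 0.38 (SD, n = 3) in hSRY-ON. On the log2 scale the level fell by 1.79, with an SE of 0.19 and a 95% confidence interval from -2.24 to -1.35 (limma adjusted p = 0.000815).

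Trim54 (MuRF3, probe ILMN_2756950) gave log2 levels of 8.74, 8.73 and 8.50 in the hSRY-OFF hearts and of 7.56, 6.51 and 7.46 in the hSRY-ON hearts. The intensities were 642, 683 and 388 in hSRY-OFF and 304, 222 and 293 in hSRY-ON. The groups did not overlap, and hSRY-ON replicate 2 was the lowest of the 6 hearts. The means were 8.66 ± 0.14 (SD, n = 3) and 7.17 ± 0.58 (SD, n = 3). The level fell by 1.48 on the log2 scale, with an SE of 0.27 and a 95% confidence interval from -2.11 to -0.85 (limma adjusted p = 0.00646). Without hSRY-ON replicate 2 the log2 difference was -1.14, and the call held. Trim63 and Trim54 were called in the same direction under all 16 other settings run.

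**Figure D1:**
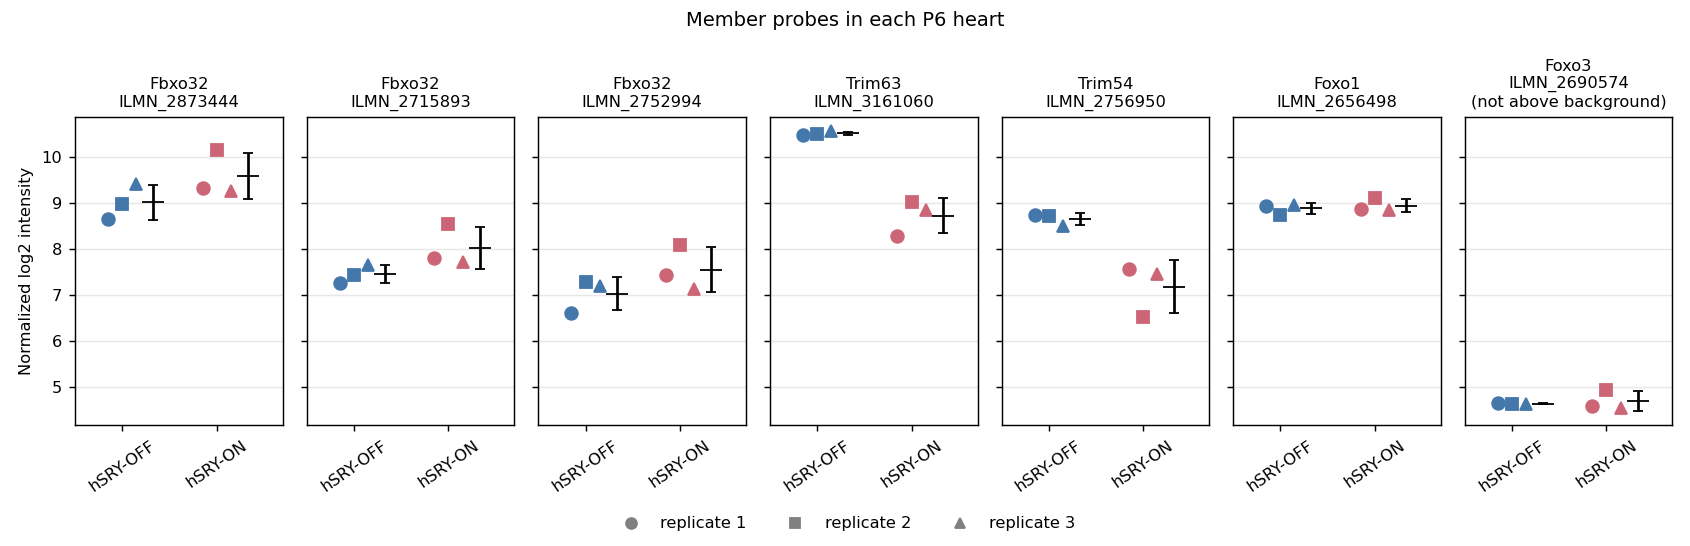
Normalized log2 intensity (vertical axis) of the 7 member probes in each heart, blue for hSRY-OFF and red for hSRY-ON, with the replicate number as the symbol and the group mean ± SD in black. The hSRY-ON points lie below all hSRY-OFF points for Trim63 and Trim54, overlap or lie slightly above them for Fbxo32, and overlap for Foxo1, while Foxo3 sits at the background.

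Fbxo32 was read by 3 probes, which share the hearts and so are no replicates of each other. The brightest, ILMN_2873444, gave log2 levels of 8.66, 8.98 and 9.41 in hSRY-OFF and of 9.32, 10.16 and 9.27 in hSRY-ON. The groups overlapped, since hSRY-OFF replicate 3 lay above hSRY-ON replicates 1 and 3, and hSRY-ON replicate 2 was the highest heart. The means were 9.02 ± 0.37 (SD, n = 3) and 9.59 ± 0.50 (SD, n = 3), and the log2 difference was 0.57 with an SE of 0.28 and a 95% confidence interval from -0.09 to 1.23 (limma adjusted p = 0.173). The interval covers no change as well as a 2.34-fold higher level.

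The probe ILMN_2715893 gave 7.26, 7.44 and 7.65 in hSRY-OFF and 7.79, 8.55 and 7.73 in hSRY-ON hearts on the log2 scale. Here all hSRY-ON hearts lay above all hSRY-OFF hearts, by a narrow margin except in hSRY-ON replicate 2. The log2 difference was 0.57 with an SE of 0.23 and a confidence interval from 0.03 to 1.12 (limma adjusted p = 0.109). The dimmest probe, ILMN_2752994, gave 6.61, 7.27 and 7.19 against 7.43, 8.08 and 7.12, with overlapping groups and a log2 difference of 0.52 ± 0.28 (SE, limma adjusted p = 0.2). In all 3 probes hSRY-ON replicate 2 was the highest of the 6 hearts. Without it the differences were 0.28, 0.31 and 0.25 in the order of the probes given. No Fbxo32 probe was called under any of the 16 other settings, and the difference stayed above 0 in each of them.

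Foxo1 (probe ILMN_2656498), the measurable one of the 2 FoxO members, gave log2 levels of 8.95, 8.75 and 8.96 in hSRY-OFF and of 8.87, 9.11 and 8.85 in hSRY-ON hearts. The groups overlapped throughout. The log2 difference was 0.06 ± 0.13 (SE), with a 95% confidence interval from -0.25 to 0.36 (limma adjusted p = 0.768), and its sign turned under 3 of the 16 other settings. The interval leaves room for a level between 0.843 and 1.29 times that of hSRY-OFF. Foxo3 (probe ILMN_2690574) gave intensities of 133 to 164 over the 6 arrays with detection p-values from 0.199 to 0.822. It was not well above background on any array, so no fold is given.

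The members were compared with each other within each heart, as the difference of their normalized log2 levels in the brightest probes. A difference between probes has no absolute meaning, but its change between groups is that of their relative level. Fbxo32 minus Trim63 was -1.50 ± 0.34 (SD, n = 3) in hSRY-OFF and 0.86 ± 0.39 (SD, n = 3) in hSRY-ON, a change of 2.36, and the groups did not overlap. Trim63 itself fell by 1.79 on the log2 scale. Against Trim54 the corresponding change of Fbxo32 was 2.05, again with no overlap. Against Foxo1, Trim63 changed by -1.85 and Trim54 by -1.54, both without overlap. Fbxo32 against Foxo1 changed by 0.51 and Trim63 against Trim54 by -0.31, both with overlapping groups. Over these 6 pairs the exact two-sided permutation p was 0.1 for the 4 pairs without overlap, the smallest that 3 against 3 hearts allow, and the Benjamini-Hochberg adjusted value was 0.15. No pair could therefore pass 0.05. Each pair without overlap set Trim63 or Trim54, the called members, against a member that was not called, so these changes are not separate from the 2 falls. The share of such pairs over all tested probes was not computed, and on 45.2% of single tested probes the groups did not overlap.

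The probes of other genes whose pattern over the 6 hearts was most like each member were found by the root mean square difference of centred log2 levels. For Fbxo32 they were Stat3 at 0.0933 and Bcl11a at 0.113, neither of them called. For Trim63 they were Cpa1 at 0.0785 and Doc2g at 0.0849, with log2 differences of -1.83 and -1.66 (limma adjusted p = 0.00167 and 0.00111). For Trim54 they were Tfrc, the transferrin receptor, at 0.0847 and Tesc at 0.125, with log2 differences of -1.51 and -1.57 (limma adjusted p = 0.00859 and 0.00285). For Foxo1 they were AA408296 at 0.0360 and Tle6 at 0.0406. Likeness over 6 hearts is a description, taken from a search over all tested probes.

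Among the other atrophy ligases, 11 of 15 listed genes were tested, and 2 were called higher and 2 lower, a called share of 36.4% against 28.8% of all 9660 tested genes. Fbxo40, an F-box protein of striated muscle, fell like the MuRF genes. Its log2 levels were 7.12, 7.23 and 7.32 in hSRY-OFF and 5.41, 5.33 and 6.18 in hSRY-ON, with no overlap. It fell by 1.58 with an SE of 0.23 (limma adjusted p = 0.00246), and a second probe of the gene had a log2 difference of -0.69 that was not called. The called probe was close to background in hSRY-ON replicates 1 and 2, with detection p-values of 0.0451 and 0.0439. Its call held under all 16 other settings, but the Fbxo40 difference ranged from -1.85 to -0.61. Fbxo30, the ligase MUSA1, gave 8.63, 8.56 and 8.33 against 7.75, 7.77 and 6.46, a fall of 1.18 with an SE of 0.34 (limma adjusted p = 0.037). hSRY-ON replicate 3 was far below the other hearts for Fbxo30, and the call was lost without hSRY-OFF replicate 1, 2 or 3, at log2 differences of -1.12, -1.16 and -1.27. Without hSRY-ON replicate 3 the Fbxo30 difference was -0.74 and was called. Mdm2, the ligase of p53, rose by 0.60 ± 0.12 (SE, adjusted p = 0.00971) and Ube4b, a ubiquitin chain assembly factor, by 0.62 ± 0.11 (SE, adjusted p = 0.00684) on the log2 scale. Another Mdm2 probe had a log2 difference of 0.39 and was not called. The remaining tested ligases, Fbxo21, Fbxo31, Fbxo25, Traf6, Trim32, Nedd4 and Siah1a, had log2 differences between -0.24 and 0.31 and were not called. Cblb was not above background, and Mul1, Stub1 and Ubr2 were not analysed here.

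The other forkhead factors moved in both directions. All 4 tested genes of 6 listed were called, beside 28.8% of all tested genes. Foxp1, a repressor that can compete with FoxO at its sites, had log2 levels of 8.34, 8.49 and 8.72 in hSRY-OFF and 9.21, 9.58 and 9.23 in hSRY-ON and rose by 0.83 ± 0.16 (SE, limma adjusted p = 0.00807). Foxk1 rose by 0.60 ± 0.14 (SE, adjusted p = 0.0195), and Foxo6 fell by 0.77 ± 0.15 (SE, adjusted p = 0.00815), being above background on 1 of 3 hSRY-ON arrays. Foxm1, a factor of dividing cells, fell by 0.61 ± 0.19 (SE, adjusted p = 0.0462), while its second probe was not called. The Foxk1 call was lost without hSRY-OFF replicates 1 or 2 and without hSRY-ON replicate 1 or 2, at 0.56, 0.53, 0.54 and 0.56. The Foxm1 call was lost without hSRY-OFF replicates 1 or 3 and without hSRY-ON replicate 1 or 2, at -0.55, -0.54, -0.62 and -0.45. Foxo4 was not above background on any array, and Foxk2 was not analysed here.

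**Figure D2:**
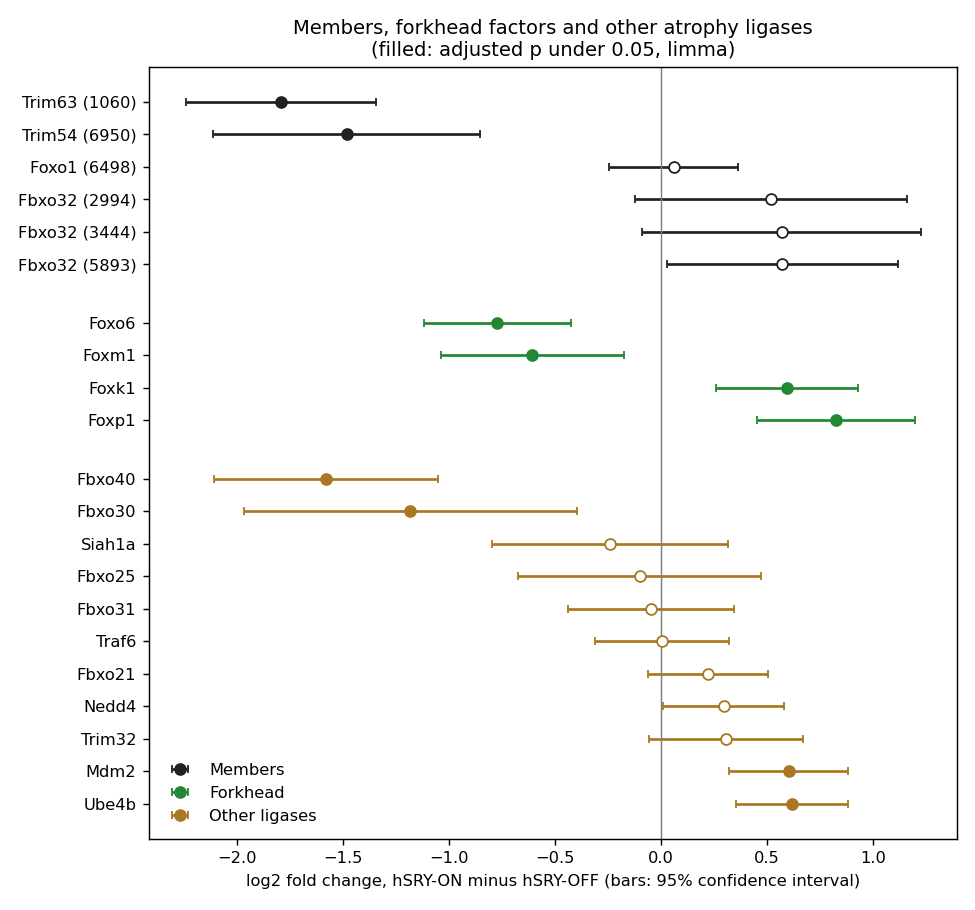
Log2 fold change of hSRY-ON over hSRY-OFF (horizontal axis) with its 95% confidence interval for each tested member probe (black, last digits of the probe in parentheses), the forkhead factors (green) and the other atrophy ligases (brown), filled where the limma adjusted p is under 0.05. Trim63, Trim54, Fbxo40 and Fbxo30 lie farthest to the left, and the 3 Fbxo32 intervals lie mostly right of 0 without a call.

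Upstream of FoxO, the insulin and Akt list held 17 tested genes, of which 3 rose, 1 fell and 13 were not called, a called share of 23.5% beside 28.8% of all tested genes. Igf1r, the receptor of insulin-like growth factor, had log2 levels of 7.52, 7.46 and 7.93 in hSRY-OFF and of 8.85, 9.02 and 8.70 in hSRY-ON, and rose by 1.22 ± 0.16 (SE, limma adjusted p = 0.00186). Pik3cb, a catalytic subunit of phosphoinositide kinase, gave 8.41, 8.84 and 8.63 against 10.14, 10.16 and 9.35 and rose by 1.26 ± 0.24 (SE, adjusted p = 0.00745). All hSRY-ON hearts exceeded all hSRY-OFF hearts in both genes. Sgk1, a kinase that phosphorylates FoxO3, was at 11.41, 11.95 and 11.89 against 12.83, 13.18 and 12.87 and rose by 1.21 ± 0.18 (SE, adjusted p = 0.00274).

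Akt2 was above background in all 3 hSRY-OFF hearts and in no hSRY-ON heart and was at least 1.28-fold lower in hSRY-ON (limma adjusted p = 0.0153). That call was lost without hSRY-OFF replicate 1 and without hSRY-ON replicate 1, and also without background correction and without normalization between arrays. Akt1, Mtor and Pik3r1 had log2 differences of 0.12, -0.06 and 0.13 and were not called. Irs2, an insulin receptor substrate and itself a FoxO target, had widely spread values, with log2 levels of 6.57, 8.72 and 8.95 in hSRY-OFF and 9.26, 9.69 and 8.93 in hSRY-ON. Its difference of 1.21 had an SE of 0.58 (adjusted p = 0.162), and hSRY-OFF replicate 1 stood far below the other hearts.

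Of the modifiers and cofactors of FoxO, 1 rose, 3 fell and 15 of 19 tested were not called, a called share of 21.1% beside 28.8% of all tested genes. Stk3, the kinase Mst2, rose by 0.87 ± 0.13 (SE, limma adjusted p = 0.00247). Sirt3, a mitochondrial deacetylase, fell by 0.88 ± 0.19 (SE, adjusted p = 0.013), and Ywhag, a phosphoprotein-binding adaptor that retains FoxO in the cytoplasm, fell by 0.70 ± 0.20 (SE, adjusted p = 0.0386). The Sirt3 call was lost without hSRY-OFF replicate 1, at -0.77. The Ywhag call was lost without hSRY-OFF replicate 1 or 2 or without any 1 of the hSRY-ON replicates, at -0.56, -0.61, -0.74, -0.66 and -0.69. The third, Skp2, an F-box protein that marks FoxO1 for degradation, fell by 0.62 ± 0.18 (SE, adjusted p = 0.0408). Its call was lost without the same 5 hearts, at -0.50, -0.64, -0.72, -0.45 and -0.69. A dimmer Skp2 probe had a log2 difference of -0.80 and was not called. Ppargc1a, which restrains FoxO3 in muscle, had a log2 difference of -0.63 with overlapping groups and was not called.

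The other inducers of the ligase genes held 12 tested genes, of which 1 was higher, 1 lower and 10 were not called, a called share of 16.7% beside 28.8% of all tested genes. Cebpb, a factor induced by glucocorticoids and inflammation, had log2 levels of 9.55, 9.75 and 9.97 in hSRY-OFF and 11.16, 11.68 and 10.62 in hSRY-ON. All hSRY-ON hearts were above all hSRY-OFF hearts, and Cebpb rose by 1.39 ± 0.26 (SE, limma adjusted p = 0.00722). Myog, the muscle factor that drives both ligases after denervation, was close to background and fell by 0.56 ± 0.14 (SE, adjusted p = 0.0225), a call lost without hSRY-OFF replicate 1 and without hSRY-ON replicate 2, at -0.51 and -0.48. The Myog call was also lost under 4 other processing settings, and its difference ranged from -0.66 to -0.16. Stat3, Smad2, Smad3, Nfkb1, Rela, Hdac4 and Klf9 were among those not called, with log2 differences between -0.22 and 0.58. Nr3c1, the glucocorticoid receptor, Mstn and Dach2 were above background on no array.

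The SCF and E2 partners are the shared machinery with which F-box and RING ligases work. Of 14 tested genes, 1 was called, a share of 7.14% against 28.8% of all tested genes, and the median log2 difference was -0.06. The called gene, Ube2e2, an E2 enzyme, was at 10.82, 10.70 and 10.73 in hSRY-OFF and at 11.68, 11.42 and 11.37 in hSRY-ON and rose by 0.74 ± 0.13 (SE, limma adjusted p = 0.00546). The SCF core genes Skp1, Cul1 and Rbx1 had log2 differences of 0.12, -0.46 and -0.25, and none was called.

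Known FoxO target genes and atrogenes, with the ligases left out apart from Fbxo30 and Fbxo21, split between both directions. Of 31 tested genes, 7 rose, 6 fell and 18 were not called, with a median log2 difference of 0.17 beside 0.0026 over all tested genes. The called share was 41.9% beside 28.8% of all tested genes. The largest rise was in the metallothionein Mt2, at 5.63 to 5.71 in the hSRY-OFF and 6.88 to 8.27 in the hSRY-ON hearts, by 1.71 ± 0.34 (SE, limma adjusted p = 0.0091). The hSRY-OFF levels of Mt2 were close to background, whose lowest passing level was 5.33 to 5.56 on those arrays. Its call held under all 16 other settings, but the Mt2 difference ranged from 0.73 to 1.96 and was 1.27 without hSRY-ON replicate 2. Ctsl, a lysosomal protease, gave 7.44, 7.25 and 7.57 against 8.57, 9.46 and 8.53 and rose by 1.44 ± 0.25 (SE, adjusted p = 0.00558). In both genes hSRY-ON replicate 2 was the highest heart and no hearts overlapped. Cited2, Ddit4, Mt1, Cdkn1a and Sqstm1 also rose, by 0.55 to 1.25. Dimmer Cdkn1a probes had log2 differences of 0.45 and 0.83, neither of them called.

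The largest falls among these targets were in Bcl2l11 and Pdk4. Bcl2l11, the apoptosis factor Bim, was at 9.40, 10.05 and 10.01 in hSRY-OFF and at 7.81, 8.77 and 8.21 in hSRY-ON and fell by 1.56 ± 0.27 (SE, limma adjusted p = 0.00562), and its promoter window holds the FoxO letters. Pdk4, which inhibits pyruvate dehydrogenase, was at 11.61, 12.06 and 11.89 against 10.39, 11.03 and 10.19 and fell by 1.32 ± 0.23 (SE, adjusted p = 0.0055). The mitochondrial antioxidant genes Sod2 and Prdx3 and the autophagy gene Map1lc3a fell by 0.78, 0.52 and 0.49. A dimmer Map1lc3a probe had a log2 difference of -0.23 and was not called. Of 36 promoter windows of this list, 2 (5.56%), those of Bcl2l11 and Txnip, held the letters, beside 3.17% of all windows. The calls of 6 genes of this list were lost without single hearts, Fbxo30 among them as given above. Ddit4 was lost without any 1 of the hSRY-OFF hearts or hSRY-ON replicate 1, at 1.39, 1.13, 1.24 and 1.40. Without hSRY-ON replicate 2 the Ddit4 difference was 0.77. Cdkn1a was lost without hSRY-OFF replicates 1 or 2 and without hSRY-ON replicate 1 or 2, at 0.71, 0.61, 0.65 and 0.54, and Sqstm1 without hSRY-OFF replicates 1 or 2 and without hSRY-ON replicate 2, at 0.56, 0.52 and 0.43. Prdx3 was lost without hSRY-OFF replicates 1 or 2 and without hSRY-ON replicate 1 or 2, at -0.48, -0.49, -0.51 and -0.45, and Map1lc3a without hSRY-OFF replicates 1 or 2 and without hSRY-ON replicate 1 or 3, at -0.42, -0.53, -0.42 and -0.49.

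**Figure D3:**
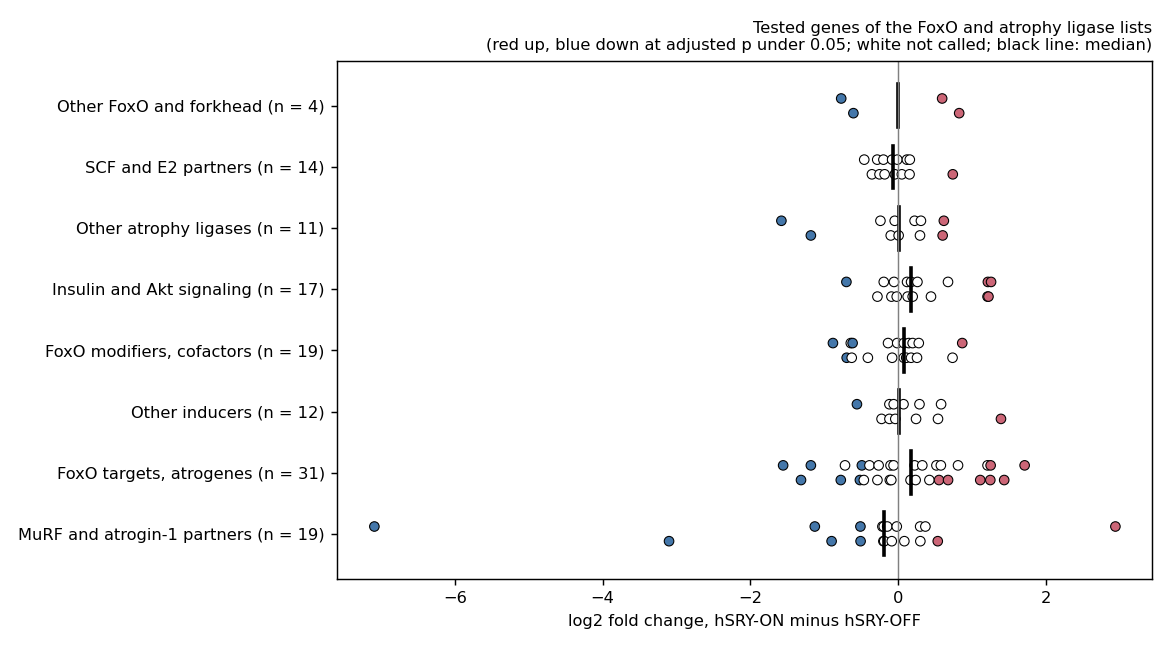
Log2 fold change of hSRY-ON over hSRY-OFF (horizontal axis) for every tested gene of 8 lists (rows), by its brightest probe, red where called higher and blue where called lower, with the list's median as a black line. The SCF and E2 partners lie close to 0 apart from Ube2e2, FoxO targets spread to both sides, and Ckmt2 and Tcap lie farthest to the left among the MuRF and atrogin-1 partners.

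Substrates and partners of the MuRF proteins and atrogin-1 held the largest changes of the lists examined. Of 19 tested genes, 2 rose and 6 fell, a called share of 42.1% beside 28.8% of all tested genes. Myh7, the slow myosin heavy chain, was at 10.46, 10.02 and 10.08 in hSRY-OFF and at 12.86, 13.39 and 13.14 in hSRY-ON and rose by 2.94 ± 0.18 (SE, limma adjusted p = 8.25e-05). Tcap, the titin cap protein of the Z-disc, was at 12.37, 12.39 and 12.57 against 8.81, 9.05 and 10.16 and fell by 3.10 ± 0.32 (SE, adjusted p = 0.000748). Neither gene had overlapping hearts. Ckmt2, the mitochondrial creatine kinase, was at 14.23, 14.29 and 14.43 against 7.56, 6.78 and 7.33 and fell by 7.09 ± 0.20 (SE, adjusted p = 1.18e-05). Tnni3, Ckm, Mybpc3 and Myh6 fell by 1.13, 0.90, 0.51 and 0.51, while titin itself had a log2 difference of -0.21 (adjusted p = 0.23). A second, dimmer Myh6 probe fell by 1.97 with an SE of 0.25 (limma adjusted p = 0.00154). Ppp3ca, a calcineurin subunit that atrogin-1 marks for degradation, rose by 0.54 ± 0.16 (SE, adjusted p = 0.0393), a call lost without hSRY-OFF replicate 1 or 2 or any 1 hSRY-ON heart, at 0.40, 0.52, 0.54, 0.53 and 0.54. A dimmer Ppp3ca probe had a log2 difference of 0.07 and was not called. The Mybpc3 call and that of the brightest Myh6 probe were lost without hSRY-OFF replicate 1 or 2 and without hSRY-ON replicate 1 or 2. The differences were then -0.49, -0.52, -0.43 and -0.50 for Mybpc3 and -0.51, -0.50, -0.52 and -0.43 for Myh6.

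Over all 8 lists 19 genes were called higher and 20 lower, each gene counted once. How many different genes of the lists were tested was not counted, so these numbers have no share. Of all 9660 tested genes, 14.9% were called higher and 13.9% lower. The number of list genes lower was 10 without hSRY-OFF replicate 1, 13 without hSRY-OFF replicate 2 and 12 without hSRY-ON replicate 1. Over all tested probes the number lower was 1779, and it was 1108, 1235 and 1181 without those hearts, in that order. The calls of Foxp1, Mdm2, Ube4b, Stk3 and Ube2e2 held under 15 of 16 other settings and were lost without normalization between arrays. The Foxo6 call held under 13 of the 14 settings in which its probe passed the filter and was lost without background correction. With all hearts kept, the calls of Foxk1, Foxm1, Akt2, Skp2, Ywhag, Myog, Map1lc3a, Sqstm1, Cdkn1a, Prdx3, Myh6, Mybpc3 and Ppp3ca were also lost without normalization. Those of Foxm1, Skp2, Ywhag, Map1lc3a and Prdx3 were lost after median scaling, and those of Foxm1, Fbxo30, Skp2, Ywhag, Ddit4 and Ppp3ca without the probe filter. Without background correction the calls of Akt2, Skp2 and Myog were lost, and with trended robust eBayes those of Myog and Ddit4. Normexp with an offset of 50 also lost the Myog call. With the replicate number as a block, the calls of Foxk1, Map1lc3a, Sqstm1, Ddit4, Cdkn1a, Prdx3, Myh6, Mybpc3 and Ppp3ca were lost.

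The heart with the highest level among the 3 hSRY-ON hearts was counted for every tested gene, after the Fbxo32 values had been seen. For Fbxo32, Foxo1 and Trim63 it was replicate 2, while for Trim54 replicate 2 was the lowest. Replicate 2 was the highest hSRY-ON heart in 14 of 17 insulin and Akt genes (82.4%), in 20 of 31 FoxO targets (64.5%), in 8 of 12 other inducers (66.7%) and in 7 of 11 other ligases (63.6%). Over all 9660 tested genes the share was 35.6%. Among the SCF and E2 partners it was 3 of 14 (21.4%) and among the MuRF and atrogin-1 partners 6 of 19 (31.6%). Among the modifiers it was 47.4% and among the forkhead factors 25%. Counted likewise among the hSRY-OFF hearts, replicate 3 was highest in 64.7% of insulin and Akt genes, 63.6% of other ligases and 57.1% of SCF and E2 partners. For hSRY-OFF replicate 3 the share was 38.7% in FoxO targets, 33.3% in other inducers and 43.5% over all tested genes. The lists share genes and hearts, and these shares are descriptions of 1 animal in each group.

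**Figure D4:**
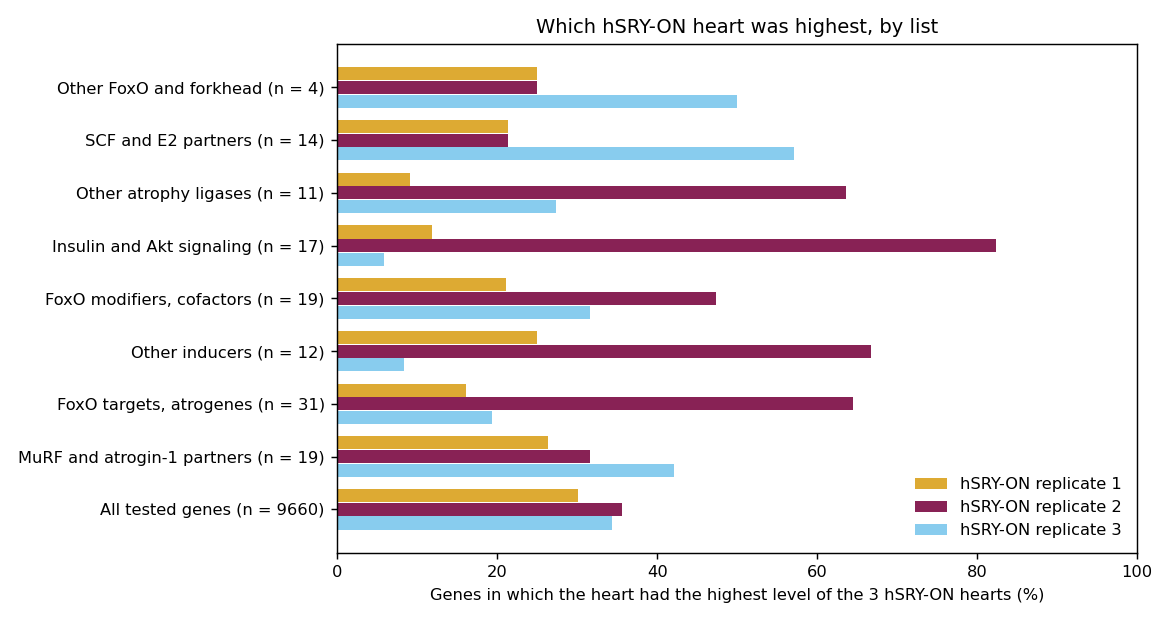
Percent of tested genes (horizontal axis) in which each hSRY-ON heart had the highest level of the 3 hSRY-ON hearts, by list (rows) and over all tested genes. Replicate 2 leads in the insulin and Akt genes at 82.4% and in the FoxO targets at 64.5%, against 35.6% of all tested genes.

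Markers of the cell types a heart sample can hold were counted beside these results. Their counts stand beside 28.8% of all 9660 tested genes called, 14.9% higher and 13.9% lower. Of 11 tested cardiomyocyte markers, 0 rose and 5 fell, with a median log2 difference of -0.33, and their summed background-corrected intensity lay between 258849 and 268576 for hSRY-OFF and between 233517 and 249456 for hSRY-ON. By their brightest probes the single markers ranged from -1.47 to 0.14, beside -1.79 for Trim63 and -1.48 for Trim54. A second, dimmer Myh6 probe fell by 1.97 (limma adjusted p = 0.00154), more than Trim63. Dimmer probes of Csrp3 and Atp2a2 were called lower although their brightest were not, and that of Actc1 was not called. Of 8 tested skeletal muscle markers, 2 rose and 5 fell, and the summed level went from between 3495 and 3718 to between 28809 and 30447, which rests on Tnnt1. The other rise was that of Actn3, with a log2 difference of 2.29 (limma adjusted p = 0.000716). The mean log2 level of Actn3 over the 6 hearts was 5.91, while the lowest level above background on an array was 5.28 to 5.56. The size of the Actn3 difference is therefore limited by signal, and it was not turned into a bound. Casq1, Tnni2, Myh8, Pvalb and Myog were the genes that fell, and Mylpf was not called. Of the same list, Myh1, Myh2, Myh4, Tnnt3 and Myod1 were above background on no array. Of 6 macrophage markers 4 rose, and their sum went from between 1301 and 1393 to between 2337 and 2929. Fibroblast markers gave 1 higher and 0 lower of 7, and endothelial markers 1 higher and 3 lower of 6. Smooth muscle markers gave 2 higher and 1 lower of 4, erythroid markers 0 higher and 1 lower of 5, adipose markers 2 higher of 4 and liver markers 2 higher of 2, with Alb above background on no array. The summed intensity of the liver markers went from between 187 and 256 to between 1063 and 2938, and that of the adipose markers spanned 1803 to 2575 in the control group and 1037 to 3592 in the other. The part of cell composition in the member results was not tested.

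**Figure D5:**
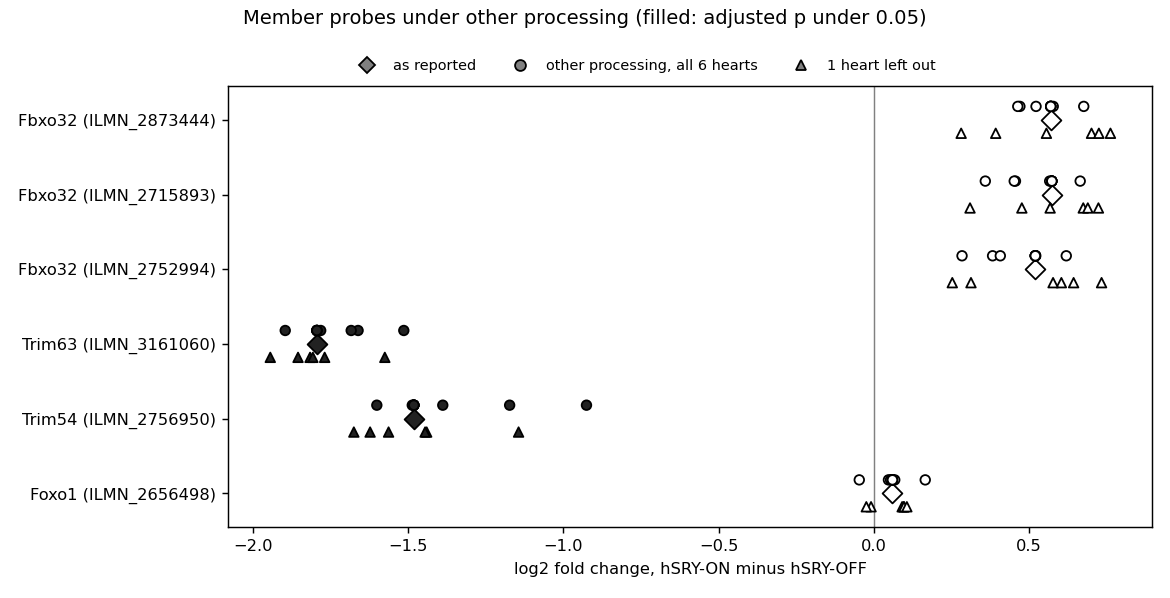
Log2 fold change of hSRY-ON over hSRY-OFF (horizontal axis) of the 6 tested member probes as reported (diamonds), under 10 other processing settings with all hearts (circles) and with 1 heart left out (triangles), filled where the limma adjusted p is under 0.05. Trim63 stays between -1.94 and -1.51 and Trim54 between -1.67 and -0.93, always called, whereas Fbxo32 stays above 0 without a call and Foxo1 lies on both sides of 0.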

How the data were processed

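Total RNA of 6 hearts was extracted with a TRIZOL kit, labelled as biotin cRNA and hybridized to MouseRef-8 BeadChips. The authors deposited, for each probe and array, the bead intensity on a linear scale without normalization and the detection p-value against the negative-control beads. The submitters' processing notes name limma and the methods name TCC without settings, and the bead summary software is not given in the sources used here. No arrays held identical values.

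With R 4.3.3 and limma 3.58.1, the neqc procedure was applied, which infers the negative controls from detection p-values, subtracts background by normexp, adds 16, normalizes by quantiles and takes log2. Probes entered the test with a detection p under 0.05 on 3 or more of 6 arrays. lmFit and eBayes compared the groups, labelled hSRY-ON and hSRY-OFF by GEO's sample titles, with two-sided p-values adjusted by Benjamini-Hochberg over 12970 probes and called under 0.05. A gene counts by its brightest tested probe. Where no array of a group was above background, the change is given as a bound against the lowest signal above background. Differences between member levels were compared with exact permutation tests. With 3 arrays a group, their number limits the precision. The code was tested on simulated data. Figures used Python 3.11.15 and matplotlib 3.10.9.

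The members and lists were chosen with earlier results of these data known. Named genes are all member probes, all genes of the forkhead and other ligase lists, the called genes with the 2 largest rises and the 2 largest falls of each other list, and the 2 nearest genes of each member. Other genes were named after their values were seen. Alternatives were intensities without background correction, normexp with an offset of 50, no normalization, median scaling, TCC-like scaling, a detection filter left out, set to all 6 arrays or to 0.01, a trended robust eBayes, the replicate number as a block, and leaving out each heart with the probe filter kept. Promoters are RefSeq's for GRCm38.p6, matched by symbol for 4 of the 6 genes. The alignment of member proteins was not run.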

Additional observations from a re-analysis of the deposited data

How the results depend on the processing

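Trim63 kept its direction and its call under all 16 alternatives, with log2 differences from -1.94 to -1.51, and so did Trim54, from -1.67 to -0.93. No Fbxo32 probe was called, with differences from 0.25 to 0.76 and limma adjusted p-values from 0.0721 to 0.484. The Foxo1 difference turned to -0.047 without normalization between arrays, to -0.0093 without hSRY-OFF replicate 2 and to -0.0245 without hSRY-ON replicate 2, none of them called, and it was between -0.02 and 0.11 with 1 heart left out. Without normalization between arrays 1897 probes were called in place of 3567, with 11 list genes higher in place of 19 and 12 lower in place of 20. The called probes were 38.5% higher in that setting and 65.7% higher after median scaling, against 50.1%, and the median of all tested probes shifted to -0.12 and 0.09. With 1 heart left out, 2239 to 3714 probes were called, 14 to 21 list genes were higher and 10 to 22 lower. The cause was not tested. With the replicate number as a block, 2842 probes were called, and the adjusted p was 0.00519 for Trim63 and 0.0177 for Trim54, with no member call changed. The labels do not say whether the numbers pair the hearts. Deviations of same-numbered hearts correlated at -0.02, 0.04 and -0.07, and those of other pairs at -0.06 to 0.09. Such correlations cannot show whether hearts shared a litter or a batch. Of 256 counts of called genes in single lists, 69 moved by over 1.5 times. Probes near background, such as Foxo3, Foxo6, Akt2, Actn3 and, in hSRY-ON, Fbxo40 and, in hSRY-OFF, Mt2, are limited by signal.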

Other observations

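The probes of Sgk3, a kinase related to Akt and Sgk1, did not move together, and the gene was named after its values were seen. The brightest probe had a log2 difference of 0.67 (limma adjusted p = 0.051), and 2 others rose by 0.83 and 0.71 (adjusted p = 0.024 and 0.0373). The fourth fell by 1.53 (adjusted p = 0.00389). The count of called genes used the brightest probe alone.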
